A study of Mus musculus with 4 samples.

Results

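The genes described here encode 7 surface proteins that are held in the membrane by a glycosylphosphatidylinositol (GPI) lipid anchor: Izumo1r (folate receptor 4, FR4, also called Juno), Ly6a (Sca-1), Ly6c1 (Ly6C), Ly6e, Thy1 (CD90), Cd24a (heat-stable antigen) and Cd52. They were chosen by name as GPI-anchored proteins known from lymphocytes, at a time when earlier results of these data were known. All 7 were found by symbol among the 50600 genes of the deposited files. RNA was sequenced from primary regulatory T cells (Tregs) of mouse strain C57BL/6NJ in 4 libraries, biological replicates 1 to 4 of a single group with no genetic or drug treatment named in the labels. Each library has a biosample record of its own, but the 4 share a donor record, so p-values here measure only how far these samples spread, and part of that spread may be technical. Sex was not collected and age was unknown. A differentiation protocol for CD4+ T cells is linked to every sample, and the file headers name the samples as activated, sorted and taken at 72 h, none of which is in the labels.

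A GPI-anchored protein has no segment that crosses the membrane. Its C-terminal signal is cut off in the endoplasmic reticulum, and a preformed lipid and sugar anchor is attached in its place by the GPI transamidase. The finished protein sits in the outer leaflet, gathers in cholesterol-rich membrane domains and can be released by enzymes that cut the anchor. In mouse T cells FR4 is known as a marker of Tregs and of anergic CD4+ cells, Thy1 as a marker of the whole T lineage, and Ly6A and Ly6C as proteins whose levels change with activation and memory.

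The 4 libraries held 32648138 to 94983494 counts, had pairwise Pearson correlations of 0.988 to 0.993 on log2(TPM + 1), taken across genes, which are not independent replicates, and shared 12114 genes at 1 TPM or more, where TPM is a transcript level scaled by exon length and library size. All 5 Treg markers and all 7 T cell markers reached that level in every library, with Foxp3 at 463.4 ± 25.42 TPM (SD, n = 4). Markers of other cells were low: the 8 myeloid markers summed to 1.391 to 3.523 TPM per library, the 5 dendritic cell markers to 3.76 to 4.942 TPM, the 6 endothelial and stromal markers to 10.31 to 11.14 TPM and the 5 CD8 and NK markers to 12.64 to 16.68 TPM, with 1 gene of each list at 1 TPM in every library (Adgre1, Zbtb46, Pecam1 and Cd8b1). S100a8, S100a9, Siglech, Clec9a, Cdh5 and Ncr1 had no count. Xist, the RNA made by the inactive X, measured 312.0, 331.0, 0.539 and 2.38 TPM in replicates 1 to 4, and the Y-linked gene Eif2s3y measured 0.083, 0.132, 49.3 and 67.7 TPM. Replicates 1 and 2 were thus high in Xist and replicates 3 and 4 expressed a Y-linked gene. These patterns belong to different sexes, so the shared donor record does not mean a single animal. How many animals were used is not stated.

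The 7 genes spanned several levels of abundance. Thy1, Izumo1r and Cd52 were among the most abundant protein-coding genes of these cells, Ly6e was in the upper part of the expressed genes, and Cd24a was low. Ly6a and Ly6c1 were close to the limit of detection. Together the 7 genes summed to 2325, 2424, 2615 and 2466 TPM in replicates 1 to 4, and the 4 most abundant made up 99.4% to 99.73% of that sum. For scale, the 10680 protein-coding genes that reached 1 TPM in every library had a median of 30.88 TPM and a 90th percentile of 162.5 TPM.

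**Figure D1:**
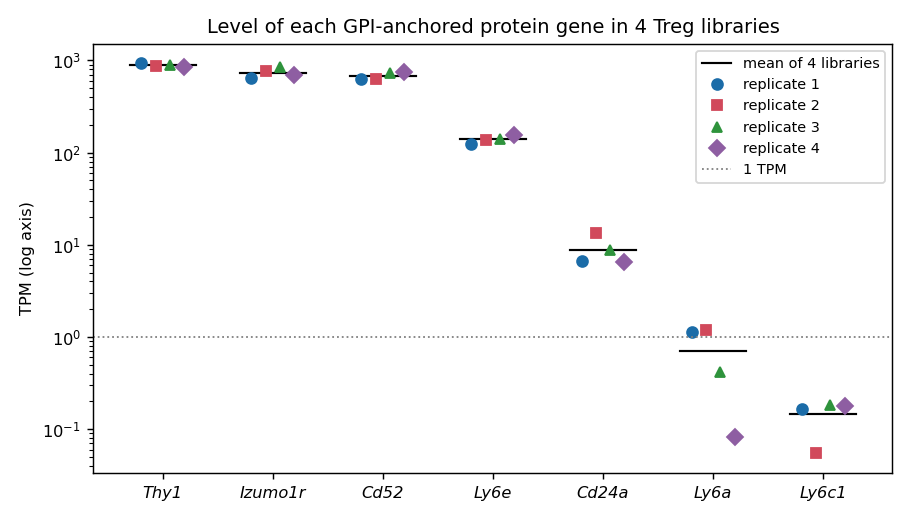
TPM (log axis) of each of the 7 genes in each library; points are replicates 1 to 4, the horizontal bar is their mean and the dotted line is 1 TPM. Thy1, Izumo1r and Cd52 lie between 624.4 and 926.4 TPM in every library, Ly6e lies between 125.4 and 153.6 TPM, and Ly6c1 stays under 1 TPM.

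Izumo1r (ENSMUSG00000031933.17, chr9:14885814-14903949, minus strand, mm10) encodes FR4, which on mouse oocytes is the receptor of the sperm protein Izumo1 and which resembles the folate receptors in sequence. It measured 641.1, 774.2, 839.5 and 700.8 TPM in replicates 1 to 4, from 21532, 39282, 57486 and 16336 read pairs. Replicate 3 was highest and replicate 1 lowest, and the mean was 738.9 ± 86.4 TPM (SD, n = 4). Its rank among protein-coding genes ran between 133 and 172 over the libraries.

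The 250 bases before the RefSeq start of Izumo1r are shown beside those of Ly6c1, the least abundant of the 7 genes, because a promoter window was matched for these 2 of the 7 (RefSeq, GRCm38.p6, both on the minus strand and printed in the direction of the gene). The Izumo1r window is chr9:14903768-14904017 and the Ly6c1 window is chr15:75048838-75049087. The RefSeq start of Izumo1r, at 14903767, lies inside the gene as the deposited files annotate it, whose start is at 14903949, so 182 of the 250 bases of that window are within the annotated gene; the Ly6c1 window lies wholly outside its gene. Capitals mark the matches to 6 motifs searched on both strands, the TATA box TATAAA, the RUNX motif TGTGGT, the STAT motif TTCNNNGAA, the forkhead motif TGTTTAC, the AP-1 motif TGANTCA and the interferon response motif ISRE, a set chosen with these windows in view.
Izumo1r: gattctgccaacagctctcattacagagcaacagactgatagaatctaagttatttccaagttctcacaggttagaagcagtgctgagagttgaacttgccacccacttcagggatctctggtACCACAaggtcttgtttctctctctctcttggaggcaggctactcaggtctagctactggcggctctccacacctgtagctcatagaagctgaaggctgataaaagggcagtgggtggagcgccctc
Ly6c1: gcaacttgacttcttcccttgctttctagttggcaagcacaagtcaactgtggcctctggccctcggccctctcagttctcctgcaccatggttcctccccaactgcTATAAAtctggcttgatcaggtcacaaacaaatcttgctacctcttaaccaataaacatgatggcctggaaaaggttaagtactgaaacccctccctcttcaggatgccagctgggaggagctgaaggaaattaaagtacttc
The Izumo1r window holds a RUNX match on the opposite strand, 127 bases before the RefSeq start and within the gene as the files annotate it. The Ly6c1 window holds a TATA box match 143 bases before its RefSeq start. Among all 32851 windows of this length, 14% hold TGTGGT and 12.4% hold TATAAA, so both are common. A window at a further RefSeq start of Ly6c1, chr15:75048664-75048913, of which 167 bases are within the annotated gene, holds none of the 6 motifs. The shares of windows with the other motifs were 7.02% for STAT, 2.98% for ISRE, 3.17% for forkhead and 6.75% for AP-1, and none of these is in the printed windows.

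Thy1 (ENSMUSG00000032011.5, chr9:44043384-44048579, plus strand) encodes a small immunoglobulin-fold protein found on all mouse T cells. It was the most abundant of the 7 genes, at 926.4, 871.6, 888.6 and 854.1 TPM in replicates 1 to 4. The libraries lay close together, with a mean of 885.2 ± 30.89 TPM (SD, n = 4), a coefficient of variation of 3.49% and a rank between 108 and 129 among protein-coding genes.

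Cd52 (ENSMUSG00000000682.7, chr4:134082448-134095082, minus strand) encodes a very short, heavily glycosylated peptide, whose human counterpart is the target of the antibody alemtuzumab. It measured 624.4, 625.4, 737.1 and 750.7 TPM in replicates 1 to 4, with a mean of 684.4 ± 68.94 TPM (SD, n = 4). Replicates 1 and 2, the libraries high in Xist, were lower than replicates 3 and 4, the libraries with Y-linked transcripts; the part of that split in the Cd52 values was not tested. Of the 1187 exon bases of Cd52, 172 overlap Crybg2 on the other strand, where the counting by strand keeps the reads apart; Crybg2 stood at 2.508 ± 0.4657 TPM.

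Ly6e (ENSMUSG00000022587.14, chr15:74955051-74959905, plus strand) encodes a Ly6 family protein of many tissues that is induced by interferon in mouse and human cells. It measured 125.4, 138.4, 140.0 and 153.6 TPM, lowest in replicate 1 and highest in replicate 4. The mean was 139.4 ± 11.55 TPM (SD, n = 4), and the rank among protein-coding genes was between 1165 and 1462.

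Cd24a (ENSMUSG00000047139.9, chr10:43578284-43584265, plus strand) encodes a mucin-like protein that is abundant on immature T cells, B cells and erythroid precursors. It measured 6.64, 13.29, 8.694 and 6.52 TPM, from 248, 750, 662 and 169 read pairs. Replicate 2 was the highest and the other 3 libraries lay between 6.52 and 8.694 TPM; the mean was 8.786 ± 3.165 TPM (SD, n = 4). Its rank among protein-coding genes was between 7819 and 9038.

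Markers of B cells and erythroid cells were examined beside Cd24a; no list of immature T cell markers was used. The 6 B cell markers summed to 5.323 to 7.34 TPM per library, of which Cd79b made up 5.374 ± 1.021 TPM; Blk had no read pair in any library. The 6 erythroid markers summed to 3.094, 11.2, 10.8 and 8.202 TPM in replicates 1 to 4, with Alas2 and Hbb-bs at 0 counts in every library. The largest part of that sum was Epor, the erythropoietin receptor, at 2.327, 10.53, 9.539 and 7.956 TPM in replicates 1 to 4, which was called for excess variation in the test described below (edgeR adjusted p = 0.00943). Klf1, an erythroid transcription factor, had 0.7675, 0.4483, 1.218 and 0 TPM. Replicate 2 was the highest for both Cd24a and the erythroid sum, while the lowest was replicate 4 for Cd24a and replicate 1 for the sum. The part of such cells in the Cd24a values was not tested. In bulk samples like these, fewer cells of a type and less RNA per cell cannot be told apart.

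Ly6a (ENSMUSG00000075602.10, chr15:74994877-74998031, minus strand) encodes Sca-1, known as a marker of mouse blood stem cells and of activated T cells. It had 20, 31, 15 and 1 read pairs, or 1.146, 1.176, 0.4218 and 0.0826 TPM in replicates 1 to 4. Replicates 1 and 2 were above 1 TPM and replicates 3 and 4 below it, along the same split as Xist, whose part was not tested. In CPM, counts scaled by library size alone, Ly6a stood at 0.434 (95% exact Poisson interval 0.265 to 0.671) in replicate 1, at 0.43 (0.292 to 0.61) in replicate 2, at 0.158 (0.0884 to 0.26) in replicate 3 and at 0.0306 (0.000775 to 0.171) in replicate 4. These intervals cover counting error only. A level of 3 read pairs, used here as the floor of detection, corresponds to 0.0652, 0.0416, 0.0316 and 0.0919 CPM in replicates 1 to 4, so Ly6a was under the floor in replicate 4.

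Ly6c1 (ENSMUSG00000079018.10, chr15:75044018-75048830, minus strand) encodes a form of Ly6C, and Ly6c2 is a separate gene. In the mouse, Ly6C is known as a marker of memory T cells and of monocyte subsets. Ly6c1 had 4, 2, 9 and 3 read pairs, or 0.1648, 0.05453, 0.1818 and 0.1781 TPM. The 18 read pairs in all corresponded to 0.0732 CPM (95% exact Poisson interval 0.0434 to 0.116). The count in replicate 2 was under the floor of 3 read pairs and that in replicate 4 was at it.

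The low values of Ly6a and Ly6c1 were checked against the near-identical copies in the Ly6 family, since reads that map to several places were not counted. The longest stretch of coding exon that Ly6a and Ly6c1 share letter for letter has 48 bases, of 402 coding bases in Ly6a and 393 in Ly6c1, and is shown because a read inside it cannot be assigned to either gene. It lies at chr15:74995283-74995330 in Ly6a and at chr15:75045423-75045470 in Ly6c1 (GENCODE M21, GRCm38, minus strand).
Ly6a and Ly6c1: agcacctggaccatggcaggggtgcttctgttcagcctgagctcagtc
Ly6c1 and its neighbour Ly6c2 share a longer stretch of 188 coding bases, which runs across exon junctions between chr15:75045545 and 75048446 in Ly6c1 and between chr15:75108686 and 75111602 in Ly6c2.
Ly6c1 and Ly6c2: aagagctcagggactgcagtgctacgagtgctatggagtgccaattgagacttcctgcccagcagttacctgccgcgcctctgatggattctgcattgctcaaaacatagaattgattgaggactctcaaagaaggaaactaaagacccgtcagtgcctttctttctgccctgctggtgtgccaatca
Over whole transcripts, 18.97% of the distinct 50-base words of Ly6a and 32.77% of those of Ly6c1 also occur in a gene at another locus. For 100-base words these shares were 1.449% and 10.14%. With Ly6c1, Ly6a shared 195 of its 50-base words and 19 of its 100-base words, so their transcripts share stretches longer than the 48 coding bases. When exon length was cut by the share of such 50-base words, an alternative added after the data were seen, mean Ly6c1 was 0.2154 TPM, against 0.1448 ± 0.06062 TPM (SD, n = 4) with the full length. Both genes stayed under 1 TPM on average in each of these settings. Izumo1r, Thy1, Ly6e and Cd52 shared no such word with another locus, and Cd24a shared 2.749% of its 50-base words, with Gm6212.

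Ly6e, Ly6a and Ly6c1 lie in a single cluster on chromosome 15, with 35.0 kb between Ly6e and Ly6a and 46.0 kb between Ly6a and Ly6c1. The part of the chromosome from Psca to Gpihbp1 (chr15:74714839-75599481, 885.0 kb) holds 46 annotated genes. Of these, 35 had no read pair in any library, and Ly6e and Them6 were the 2 that reached 1 TPM in every library. Of the 17 genes on the Ly6 family list found in the files, 10 had no count and 1, Ly6e, was at 1 TPM or more throughout. After Ly6e, the highest were Ly6k at 1.305 ± 0.636 TPM, Lynx1, a modulator of nicotinic acetylcholine receptors, at 0.742 ± 0.276 TPM, and Ly6a. Ly6c2 had 4 read pairs, all in replicate 3, and Ly6g, the neutrophil marker Ly6G, had none.

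**Figure D2:**
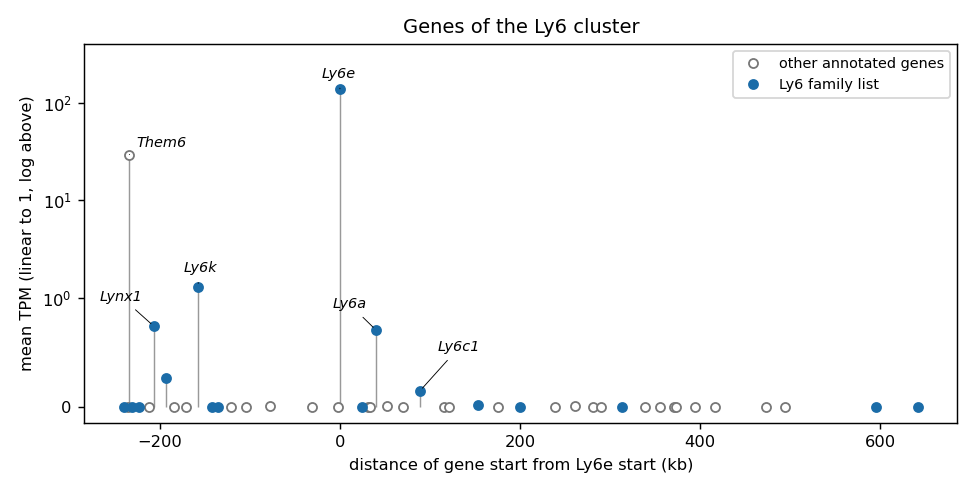
Mean TPM over 4 libraries (linear up to 1, log above) of every annotated gene between Psca and Gpihbp1 on chromosome 15, against the distance of the gene's start from that of Ly6e in kb; filled points are genes on the Ly6 family list and open points are other annotated genes. Ly6e at 139.4 TPM stands alone among the Ly6 family genes, and most genes lie at 0.

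The order of the 7 genes was compared within libraries, as the difference of log2(TPM + 1) between neighbours in the order of mean TPM, by an exact permutation test that flips signs, two-sided. With 4 libraries the smallest p of this test is 0.13, which adjusts to 0.14 over the 21 pairs. Thy1 exceeded Izumo1r by 0.267 ± 0.194 log2 units (SD, n = 4), in 4 of 4 libraries (exact permutation p = 0.13). Izumo1r exceeded Cd52 by 0.109 ± 0.177, in 3 of 4 libraries (exact permutation p = 0.375), so the order of these neighbours did not hold beyond the spread. Cd52 exceeded Ly6e by 2.286 ± 0.091, Ly6e exceeded Cd24a by 3.89 ± 0.452 and Cd24a exceeded Ly6a by 2.528 ± 0.466, each in 4 of 4 libraries and each at the smallest p the test allows. Ly6a exceeded Ly6c1 by 0.518 ± 0.543, in 3 of 4 libraries (exact permutation p = 0.25), again within the spread. In CPM, which does not correct for length, the Izumo1r to Cd52 difference was 1.072 and the Cd52 to Ly6e difference was 0.619; the exon lengths of Izumo1r, Cd52 and Ly6e are 2320, 1187 and 3784 bases. The Thy1 to Izumo1r difference was 0.635 in CPM. The Ly6a to Ly6c1 difference was 0.219 in CPM and 1.391 with a pseudocount of 0.1.

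The spread of each gene between libraries was set against that of genes of like abundance, with edgeR's goodness-of-fit test over all 13478 genes that passed the filter on low counts. At a Benjamini-Hochberg adjusted p under 0.05 it called 51 of them, or 0.378%. Ly6a and Ly6c1 did not pass the filter. Of the 5 genes that did, 0 were called by edgeR and 0 by limma-trend, which called 15 genes (0.111%) in all. At an unadjusted p under 0.05 edgeR gave 1 of the 5, Cd24a, against 805 of all genes tested (5.97%), and limma-trend gave 3, Cd24a, Izumo1r and Cd52, against 648 (4.81%). EdgeR draws its gene-wise (tagwise) estimates of the biological coefficient of variation towards the trend, so nearness to the trend is partly built in. The gene-wise biological coefficient of variation was 0.0904 for Thy1, against 0.0954 for the trend at its abundance. It was 0.0925 for Izumo1r against a trend of 0.0886, 0.0804 for Cd52 against 0.0745, 0.0704 for Ly6e against 0.0696, and 0.194 for Cd24a against 0.162.

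**Figure D3:**
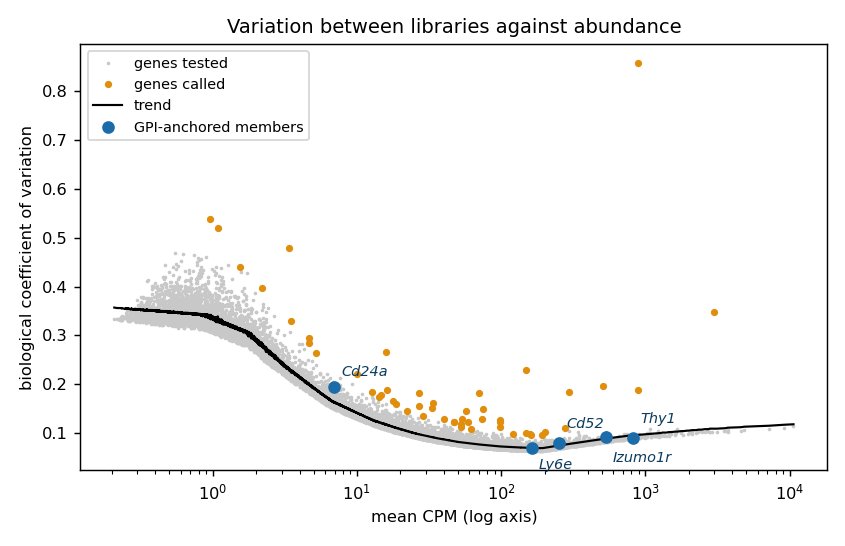
Biological coefficient of variation between the 4 libraries against mean CPM (log axis) for all 13478 genes tested (grey), the 51 genes called (orange), the trend (line) and the 5 GPI-anchored protein genes tested (blue). The gene-wise estimates are drawn towards the trend by edgeR, so nearness to it is partly built in. Of the 5 genes, Cd24a at 0.194 lies the farthest above the trend.

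Among the 5 genes that passed the filter, Cd24a had the widest spread, at -0.305, 0.611, 0.066 and -0.372 log2 CPM from its mean in replicates 1 to 4 (edgeR goodness-of-fit adjusted p = 0.552). Its unadjusted p of 0.014 in edgeR was 0.455 without replicate 2, and with the common in place of the trended dispersion its adjusted p was 0.0331, a setting that called 931 genes (6.91%) in all. Izumo1r deviated by -0.163, 0.028, 0.211 and -0.076 (edgeR adjusted p = 1.0), Cd52 by -0.093, -0.171, 0.132 and 0.132 (edgeR adjusted p = 0.963), Ly6e by -0.115, -0.052, 0.029 and 0.138, and Thy1 by 0.1, -0.068, 0.025 and -0.058. The highest library was replicate 1 for Thy1, replicate 2 for Cd24a, replicate 3 for Izumo1r and replicate 4 for Ly6e, while for Cd52 replicates 3 and 4 were equally high.

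**Figure D4:**
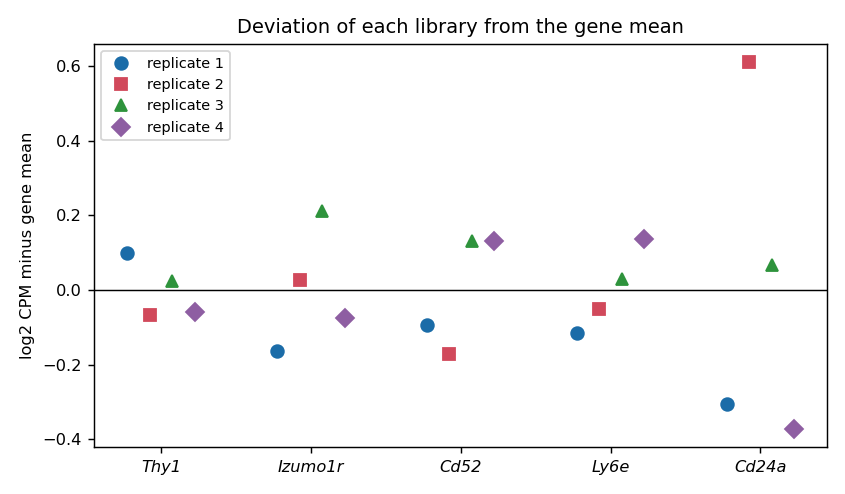
Deviation of log2 CPM in each library from the gene's mean over 4 libraries, for the 5 genes that passed the filter on low counts. Cd24a spans 0.983 log2 units between replicates 2 and 4, whereas every library of the other 4 genes lies between -0.171 and 0.211.

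The genes with the most similar profiles were sought among 9884 genes with a mean of 5 CPM or more, by the root mean square distance between the 4 deviations of log2 CPM. With 4 points shared by all genes, close matches are common and are a description only. For Izumo1r they were Bri3 (distance 0.0228), the thyroid hormone receptor gene Thra (0.0233) and Foxred1 (0.0244), and 63 genes lay within 0.05. The nearest was Kdelr2, a receptor that returns proteins to the endoplasmic reticulum, for Thy1 (0.00385, with 917 genes within 0.05). It was Dnajc16 for Cd52 (0.00229, with 92 genes) and Bdh1, a ketone body dehydrogenase, for Ly6e (0.00746, with 303 genes). For Cd24a it was Pip5k1b, a phosphoinositide kinase, at 0.0728, and 0 genes lay within 0.05.

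Beside these 7 genes, 33 other genes of GPI-anchored proteins were found in the files. The 7 held 71.7% to 73.0% of the summed TPM of both lists in every library. Both lists were chosen with earlier results of these data known, so this share depends on the choice of genes. Of the 33, 14 were at 1 TPM or more in all 4 libraries and 6 had no count. In the excess variation test 0 of the 19 tested were called, against 0.378% of all genes tested. The highest were Bst2 (tetherin, which holds budding viruses on the cell) at 240.1 ± 18.97 TPM, Cd48 (a ligand of CD2 and CD244) at 226.7 ± 16.83 TPM, Prnp (the prion protein) at 156.1 ± 18.53 TPM and Nt5e (CD73, which makes adenosine from AMP) at 103.4 ± 12.39 TPM. All 4 were less abundant than Thy1, Izumo1r and Cd52 in every library, and Bst2 and Cd48 were more abundant than Ly6e in every library.

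The machinery that builds and attaches the anchor was present throughout. All 22 genes of anchor assembly reached 1 TPM in every library, with a median of 21.12 TPM, against 26.18 TPM over all 12114 expressed genes. The highest were Clptm1l (a lipid scramblase of the pathway) at 253.8 ± 12.42 TPM, Mpdu1 at 86.96 ± 7.664 TPM, Dpm2 at 74.74 ± 3.686 TPM and Pigq at 59.55 ± 2.11 TPM; Mpdu1 and Dpm2 act in the supply of dolichol-linked mannose, and Pigq is part of the enzyme of the first step. Piga, the catalytic subunit of that enzyme and X-linked, stood at 18.71 ± 2.301 TPM. All 5 subunits of the transamidase reached 1 TPM in every library: Pigs at 128.3 ± 9.821 TPM, Gpaa1 at 124.7 ± 12.42 TPM, Pigt at 80.0 ± 5.554 TPM, the catalytic Pigk at 19.95 ± 1.452 TPM and Pigu at 17.0 ± 1.21 TPM.

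Of the 8 genes for remodelling and export of anchored proteins, 7 reached 1 TPM in every library. The p24 cargo receptors Tmed9 (383.4 ± 18.99 TPM), Tmed10 (113.7 ± 6.236 TPM) and Tmed2 (83.62 ± 6.14 TPM) led, followed by the anchor phosphatase Mppe1 (46.6 ± 2.415 TPM). Pgap1, which removes the fatty acid from the anchor's inositol, was the lowest at 1.004 ± 0.141 TPM and was under 1 TPM in replicates 2 and 3. Of 5 genes for release from the anchor, 3 reached 1 TPM in every library: Gdpd5 at 14.77 ± 0.899 TPM, Tmem8 at 13.72 ± 0.782 TPM and Gpld1, the GPI-specific phospholipase D, at 3.798 ± 1.236 TPM. Gdpd2 had 4 read pairs, all in replicate 1, and Notum had none. The excess variation test called 0 genes of these 4 lists in edgeR, against 51 of all 13478 genes tested (0.378%). At that share, lists of this size are likely to hold no called gene.

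**Figure D5:**
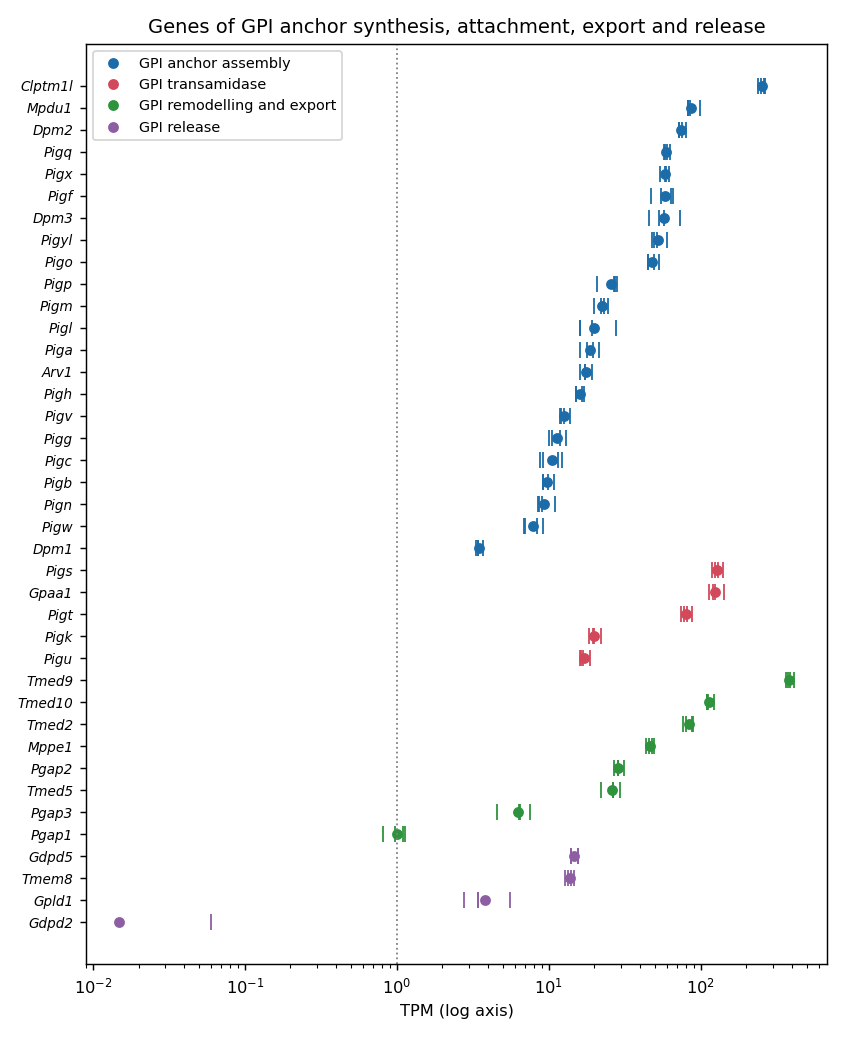
TPM (log axis) of genes for assembly, transamidase attachment, remodelling and export, and release of the GPI anchor; points are means of 4 libraries, ticks are the libraries and the dotted line is 1 TPM. Values of 0 cannot be drawn on this axis, so Gdpd2 shows 1 tick and Notum is left out; assembly genes run up to Clptm1l at 253.8 TPM.

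The genes that act with these proteins were described from lists. The binding partners on the list reached 1 TPM in every library for 5 of 9. They were led by Itgb2, the beta chain of leukocyte integrins, some of which bind Thy1, at 772.0 ± 55.21 TPM, Hmgb1, a nuclear protein that CD24 and CD52 bind once released, at 77.0 ± 3.862 TPM, the tetraspanin Cd9 at 58.19 ± 6.659 TPM and Itgav at 24.56 ± 2.634 TPM. Itgam, the alpha chain that forms with Itgb2 the integrin Mac-1, a Thy1 partner, had 8 read pairs in all, at 0.023 ± 0.029 TPM. Siglecg, the mouse lectin that binds CD24, stood at 0.317 ± 0.177 TPM, Selp, the P-selectin gene, at 0.075 ± 0.07 TPM and Izumo1, the sperm partner of FR4, at 0.37 ± 0.156 TPM; these and Itgam were named after their values were seen. Of 9 genes of raft signalling 8 reached 1 TPM in every library, with a median of 111.7 TPM, led by the kinase Lck at 777.7 ± 15.36 TPM, the adaptor Lat at 529.3 ± 19.48 TPM, Csk, which restrains Lck, at 393.5 ± 8.286 TPM and Fyn at 148.2 ± 12.24 TPM. Cav1, the caveolin of other cell types, had 5 read pairs in all, in replicate 3.

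The folate receptor genes Folr1 and Folr2 had no read pair in any library. The genes that take up and hold folate inside cells were present, with 6 of 8 on the folate list at 1 TPM or more in every library. They included the carrier Slc19a1 at 101.3 ± 5.429 TPM, Fpgs, which traps folate as polyglutamate, at 45.15 ± 3.815 TPM, and the mitochondrial carrier Slc25a32 at 21.6 ± 2.42 TPM. Izumo1r was more abundant than any of these in every library. FR4 is also listed among markers of anergic T cells, and 9 of 10 such genes reached 1 TPM in every library, with a median of 76.32 TPM. Dgkz at 356.5 ± 10.87 TPM and Dgka at 207.4 ± 18.0 TPM, both diacylglycerol kinases, led with the transcription factor Egr3 at 124.2 ± 7.958 TPM and Nt5e, while the ligase gene Rnf128 (GRAIL), named after its value was seen, stood at 0.162 ± 0.083 TPM. The edgeR test called 0 genes of the partner, raft, folate and anergy lists, against 0.378% of all genes tested.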

How the data were processed

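RNA was sequenced in 4 libraries of mouse Tregs. The authors deposited raw counts of read pairs per gene, obtained by running featureCounts 1.4.6-p4 over GENCODE M13 exons on alignments by STAR, per the file headers; strand setting 2 was used and reads that map to several places or overlap several genes were not counted. The assembly is mm10, per the labels. The assay is titled total RNA-seq while the library protocol is named PolyA+. No source used here gives the alignment settings.

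From the deposited counts, TPM was computed with the exon lengths of the files, and CPM with the library totals (46044354, 72147632, 94983494 and 32648138 counts in replicates 1 to 4; 3 counts are the floor). GENCODE M21 names matched 50376 of 50600 gene IDs. A gene was called expressed at 1 TPM in every library. Members were compared within libraries on log2(TPM + 1) by an exact permutation test that flips signs, adjusted by Benjamini-Hochberg over 21 pairs. For excess variation, the goodness-of-fit test of edgeR 4.0.16 (R 4.3.3) was run against the trended dispersion (filterByExpr with a minimum count of 10, TMM, intercept only), adjusted over all genes; limma 3.58.1 was an alternative. Other alternatives were the scaling, filter, dispersion, pseudocount, length, CPM and leaving out each library.

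The members and the 19 gene lists were chosen with earlier results of these data known. Named genes are all members; every gene of lists of up to 6 and the 4 highest of longer lists; called list genes; the nearest profiles; and the nearest neighbour on each side at a mean of 1 TPM. Piga, Pgap1, Ly6c2, Ly6g, Cav1, Them6 and those so described in the text were chosen after their values were seen. Some list genes are not reported here by name. No protein sequences were used here.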

Additional observations from a re-analysis of the deposited data

Results flagged for a closer look

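Among 77 genes with values in 4 libraries, 8 had a highest or lowest library whose gap to the nearest other library, as a share of the gene's range, was above the 95% critical value of Dixon's test. For continuous, normal values chance picks out about 1 in 20 such groups. That rate does not hold at a few read pairs, as for Ly6c1, Gdpd2 and Ly6c2. A gene with counts in a single library is always picked out. Among the GPI-anchored protein genes described first, this was Ly6c1, lowest in replicate 2 at 0.05453 TPM, which is 2 read pairs, with 0.1648 to 0.1818 TPM in the other libraries. Replicate 1 was lowest for Cd48 at 201.5 TPM, with 232.9 to 236.8 TPM in the others, and for Itgb2 at 690.0 TPM, with 788.9 to 806.9 TPM. It was highest for Mpdu1 at 98.36 TPM, with 82.26 to 84.51 TPM in the others, and for Gdpd2 at 0.05995 TPM, which is 4 read pairs against 0. Replicate 2 was highest for Itgav at 28.45 TPM, with 22.63 to 23.62 TPM in the others. It was lowest for Dgkz at 340.3 TPM, with 360.7 to 363.0 TPM in the others. Ly6c2 was highest in replicate 3 at 0.04946 TPM, which is 4 read pairs against 0.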

How the results depend on the processing

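No paired analysis was possible because the 4 libraries form a single group, with no second group to pair by replicate number; genes were compared within libraries. The mean levels of the 7 genes stayed within 1 SD in 53 recomputed values and moved by more in 3, which were Ly6c1 at 0.2154 TPM with 50-base unique length, and Ly6e at 151.7 TPM and Thy1 at 964.5 TPM when TPM was taken over nuclear protein-coding genes only. Many of the 53 could not have moved. Leaving out 1 of 4 libraries cannot shift a mean by 1 SD. The unique lengths leave Izumo1r, Thy1, Ly6e and Cd52, and the differences between them, as they were. The 6 neighbouring differences kept their direction in all 48 alternatives, but many of these could not have reversed it. Where a difference was above 0 in 4 of 4 libraries, leaving out a library or changing the pseudocount cannot reverse its direction. The number of genes with excess variation, 51, was 931 with the common dispersion and 15 with limma-trend, and ran between 17 and 56 when a library was left out (17 without replicate 1, 23 without replicate 3 and 33 without replicate 4). The cause of these shifts was not tested. For the 5 genes tested, 44 recomputed adjusted p-values stayed above 0.05 and 1 passed it, Cd24a with the common dispersion (edgeR adjusted p = 0.0331; 0.557 to 1.0 in its other alternatives). Without replicate 1, 2 genes of the Ly6 cluster list, Ly6e and Ly6k, reached 1 TPM in every library. The planned count of unique positions in a genome was not run, and words of the transcripts took its place. At 1 to 31 read pairs per library, counting error limits what can be said of Ly6a and Ly6c1.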

Other observations

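The nearest gene at a mean of 1 TPM beside Izumo1r was Gpr83, a receptor gene known from mouse Tregs, 15 kb away. It stood at 37.89, 51.27, 53.8 and 39.17 TPM in replicates 1 to 4 (edgeR goodness-of-fit adjusted p = 0.227), so replicates 2 and 3 were the highest for Gpr83 as they were for Izumo1r. On the other side lay the lincRNA Gm47214 at 1.57 ± 0.89 TPM (SD, n = 4). Thy1 lay 2.33 kb from the lincRNA Gm39323, at 30.2 ± 4.701 TPM, and 18.4 kb from Usp2, at 1.346 ± 0.2473 TPM. Cd24a lay between 1700021F05Rik at 8.77 ± 1.59 TPM and Qrsl1 at 16.26 ± 0.5683 TPM, and Ubxn11, 7.49 kb from Cd52, stood at 14.38 ± 0.8622 TPM. Beyond the Ly6 cluster the next such gene was Zfp41 at 13.98 ± 1.439 TPM.

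Ly6e and Bst2 are known interferon-induced genes. Of the 12 genes on the interferon list, 7 reached 1 TPM in every library and the median was 2.72 TPM. EdgeR called 0 of the 9 tested for excess variation, against 0.378% of all genes tested. The 12 genes differed widely in level. The list included Ifi27l2a at 604.1 ± 95.74 TPM, Bst2 at 240.1 ± 18.97 TPM and Isg15 at 11.25 ± 7.391 TPM. Isg15 was highest in replicate 1, at 22.11 TPM, with 6.23 to 9.681 TPM in the other libraries. Ly6e was lowest there, and so was Ifi27l2a, at 495.8 TPM, with 561.6 to 715.5 TPM in the other libraries. Genes of the list thus differed in direction. The 12 genes summed to 821.4, 842.4, 1025 and 961.3 TPM in replicates 1 to 4, most of it from Ifi27l2a. The part of interferon in the Ly6e values was not tested.

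H2-Q7, a GPI-anchored class I protein gene singled out after its values were seen, measured 19.95, 21.09, 12.95 and 13.19 TPM in replicates 1 to 4 (edgeR goodness-of-fit adjusted p = 0.139), along the same split of the libraries as Xist. It belongs to a family of related class I genes; the sequence it shares with them was not measured, so its level is uncertain.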
